A study of Sus scrofa with 28 samples.

Results

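The probes described here are those that the platform's annotation lists for 4 genes of muscle calcium handling, RYR1, CALM3, ATP2A2 and SLN. A probe was taken when the annotation gives it exactly 1 gene symbol and that symbol is one of these. The rule found 8 of the 4608 probes on the array, 4 for RYR1, 2 for SLN, and 1 each for CALM3 and ATP2A2. In all, 509 probes carry 1 symbol, for 211 genes, so these are 4 of 211 named genes.

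The RNA was that of the semimembranosus, a large ham muscle, in 14 pigs. The 7 pigs of the normal group had meat with a low L* value, a measure of lightness, and the 7 pigs of the destructured group had pale meat with a high L* value. Breed, age, sex and treatment of the animals are not given in the sources used here. Each pig's RNA was copied into radioactively labelled cDNA and hybridised to 1 array that carries every probe in a left and a right part, so the pig is the replicate and the 2 parts repeat 1 RNA. One pig number occurs in both groups, as normal replicate 2 and as destructured replicate 3, and the labels do not say whether it is 1 animal.

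A muscle fibre contracts when calcium leaves the sarcoplasmic reticulum, its internal calcium store, and relaxes when calcium is pumped back. RYR1 is the release channel of that store. ATP2A2 is the calcium pump SERCA2, the form of slow fibres and heart, and SLN, sarcolipin, is a small membrane protein that binds such pumps and lowers their calcium transport. CALM3 is one of several genes that encode the same calmodulin protein, the calcium sensor that binds RYR1 and many enzymes. In pigs an inherited RYR1 mutation is a known cause of stress susceptibility and of pale, exudative meat, and calcium release after slaughter speeds glycolysis and the fall of pH.

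Intensities are given as log2 values after quantile normalization, averaged over both parts of a pig's array. Each log2 fold change is the destructured mean minus the normal mean, given with its standard error (SE) from limma's moderated fit and with p-values adjusted by Benjamini-Hochberg over all 4608 probes. A probe was called at an adjusted p under 0.05. None of the 8 probes was called, where 0.651% of all probes were (30 of 4608). At an unadjusted p under 0.05 stood 1 of the 8, against 13.0% of all probes (601). Of the 8, 3 had positive and 5 negative fold changes, with a median of -0.05, and over all probes the median was -0.02. The CALM3 probe stood apart in size, with a higher fold change than all but 1.87% of the probes on the array. The other 7 lay between -0.34 and 0.28.

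**Figure D1:**
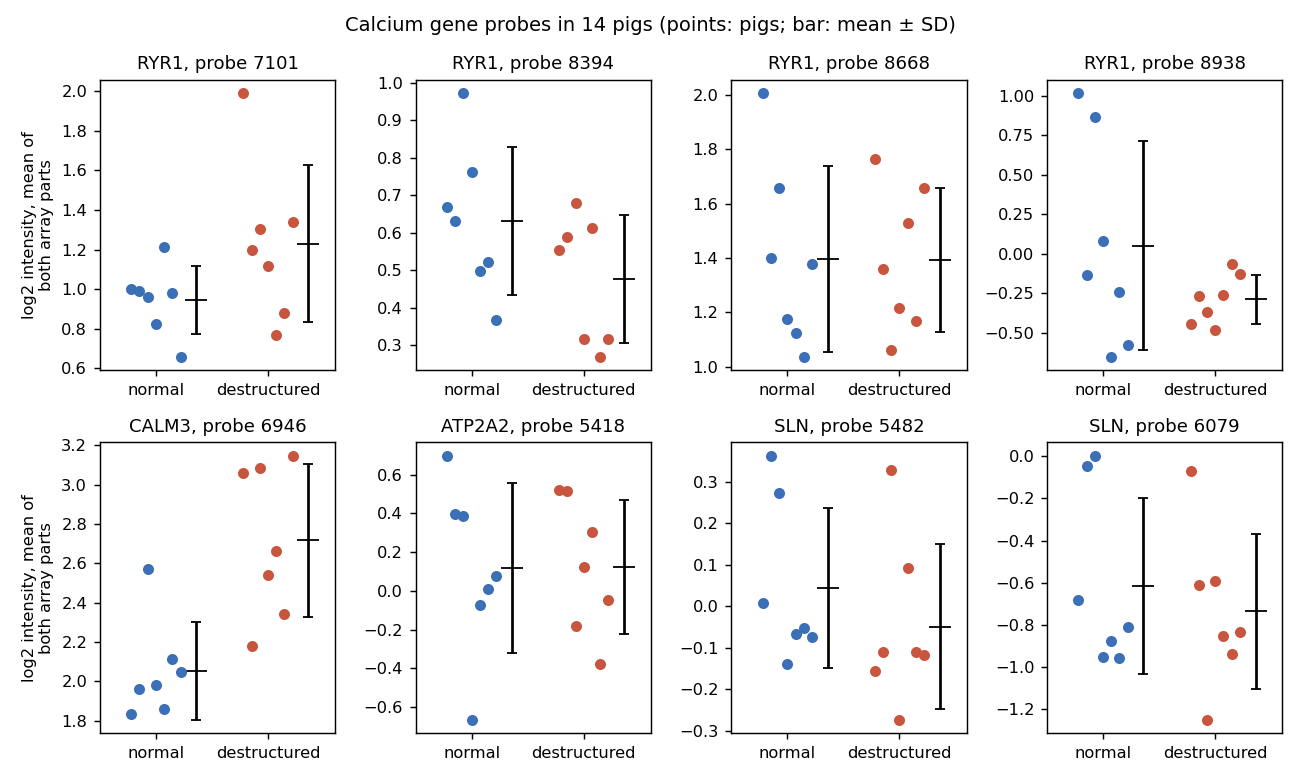
Log2 intensity (vertical axis, averaged over both array parts, a scale of its own in each panel) of each of the 8 probes in 7 normal (blue) and 7 destructured (red) pigs, in order of replicate number, with the group mean ± SD as a black bar. The CALM3 values of the destructured pigs lie between 2.18 and 3.15 and those of 6 normal pigs at or below 2.11, while in the other 7 panels the groups overlap widely.

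The probe listed for CALM3 (probe 6946) read from 1.83 to 2.57 in normal pigs, with a median of 1.98, and from 2.18 to 3.15 in destructured pigs, with a median of 2.66. The group means were 2.05 ± 0.248 and 2.72 ± 0.388 (SD, n = 7 each). All 7 destructured pigs lay above the normal mean, and 4 of them above the highest normal pig. The groups overlapped, as they did for all 8 probes (1.28% of all probes had groups without overlap). Normal replicate 3 stood at 2.57, above the next normal pig at 2.11 and above 3 destructured pigs. The difference was 1.58-fold (log2 fold change 0.66, SE 0.17, 95% interval from 0.30 to 1.02), and it missed the threshold over all probes (limma, adjusted p = 0.0708). For this gene taken alone, an exact two-sided permutation test over the 14 pigs gave p = 0.00466, unadjusted, and the gene was among those chosen with earlier results of these data known. Among the destructured pigs replicates 1, 3 and 7 were highest, at 3.06, 3.08 and 3.15, and replicate 2 was lowest at 2.18.

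The 2 parts of each array showed where the high normal value came from. In the left part the CALM3 probe read from 1.81 to 2.00 in the 7 normal pigs, a mean of 1.90 ± 0.0645 (SD, n = 7). The 7 destructured pigs read from 2.18 to 3.36 there, a mean of 2.78 ± 0.397 (SD, n = 7). The groups did not overlap in the left part, as was so for 0.890% of all probes. In the right part normal replicate 3 read 3.28 against 1.85 in its own left part, and the other 6 normal pigs from 1.84 to 2.23. Destructured pigs read from 2.18 to 3.35 in the right part. Without normal replicate 3 the values of the left and right part correlated at r = 0.852 over 13 pigs for this probe, and with it at 0.592; the pigs of both groups enter these values, which are a description.

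**Figure D2:**
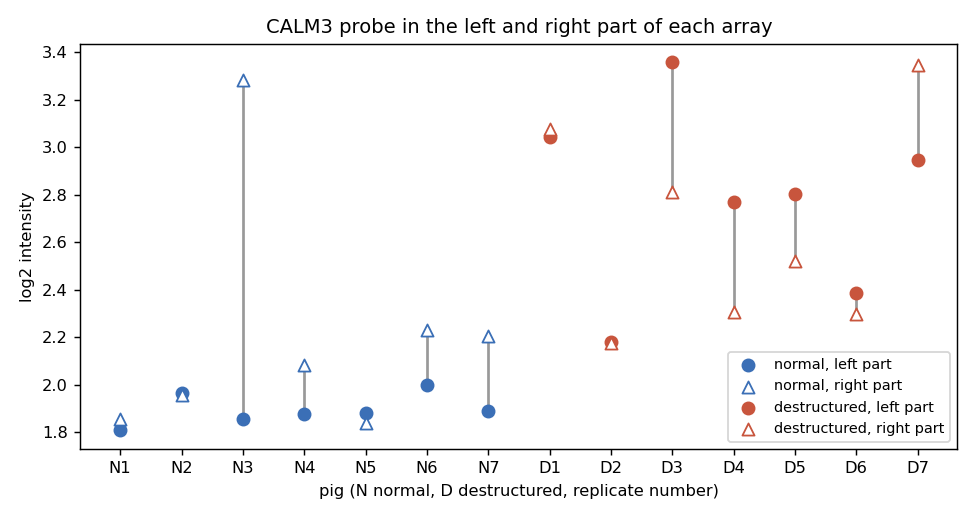
Log2 intensity of the CALM3 probe (vertical axis) in the left part (filled circles) and right part (open triangles) of each pig's array, for normal pigs N1 to N7 (blue) and destructured pigs D1 to D7 (red); grey lines join the parts of 1 array. Left parts of normal pigs lie between 1.81 and 2.00, below every destructured left part, and the right part of N3 lies apart at 3.28.

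That right part disagrees with its left part over the whole array (r = 0.380 across probes, where the other 13 arrays reached from 0.868 to 0.963). Without it the CALM3 probe was higher in the destructured group. Normal pigs averaged 1.97 ± 0.105 and destructured pigs 2.72 ± 0.384 (SD, n = 7 each), with a log2 fold change of 0.76 (SE 0.15, limma adjusted p = 0.0110). Normal pigs then lay between 1.85 and 2.13 and destructured pigs between 2.19 and 3.15, with no overlap. In that setting 2.93% of all probes were called and 1.61% had groups without overlap. The probe passed from the left part alone (0.89, adjusted p = 0.0332), without normal replicate 3 (0.75, adjusted p = 0.0243), and with array weights (0.67, adjusted p = 0.0245). The shares of all probes called there were 0.260%, 1.82% and 2.80%. The left part alone and the fit without normal replicate 3 also leave out the reading of 3.28. That was the highest normal reading, so leaving it out widens the difference by construction, and these calls are not separate support. Array weights are set for each pig from these same data. How much weight normal replicate 3 kept was not examined, so the call with array weights is not separate support either. Leaving out any other single normal pig gave no call (limma adjusted p from 0.0851 to 0.139). With the array part as a replicate block and the pig as a random block its adjusted p was 0.0201 (0.66, 2.32% of all probes called). That fit took the columns of a pig as correlated at 0.140, a value over all probes with group and part already fitted. The 0.592 between the parts for this probe includes the group difference, so the 2 values are not like measures. The fit counts the 2 parts of 1 RNA as nearly separate samples, so its p may be too small for this probe, and the call adds no support. From the right part alone the probe did not pass (0.44, SE 0.24, adjusted p = 0.577), and the groups overlapped there, where 1.13% of all probes had groups without overlap. Nor did it pass without the 2 samples sharing a pig number (0.59, SE 0.19, adjusted p = 0.262) or with median centring (0.60, SE 0.20, adjusted p = 0.2075).

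Average fold changes differed by the place of a probe in the deposited table, which repeats in blocks of 6 rows and 12 columns. Over the table columns that hold the 8 probes they ran from -0.14 to 0.19. The CALM3 probe had the opposite sign to its place: probes of its table column averaged -0.14, and those at its repeating position had a median fold change of -0.35. With position medians removed its log2 fold change was 1.00 (SE 0.20, adjusted p = 0.0552). With the right part of normal replicate 3 left out as well it was 0.94 (SE 0.18, adjusted p = 0.0311, 0.369% of all probes called). The groups overlapped in both, and 0.781% of all probes had groups without overlap in each. Of the 4 probes next to it in the table, the one directly after it in the same column, listed for the glycolytic enzyme GAPDH, had a log2 fold change of 0.69 (SE 0.18, adjusted p = 0.0744). The remaining neighbours, which are unnamed here, stood between -0.15 and 0.14. The median log2 intensity of an array before scaling was 1.52 ± 0.157 in destructured and 1.33 ± 0.281 in normal pigs (SD, n = 7 each; exact two-sided permutation test, p = 0.147). Without scaling the CALM3 fold change was 0.82 (SE 0.22, adjusted p = 0.134). The part of table place and of brightness in the CALM3 value was not tested.

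**Figure D3:**
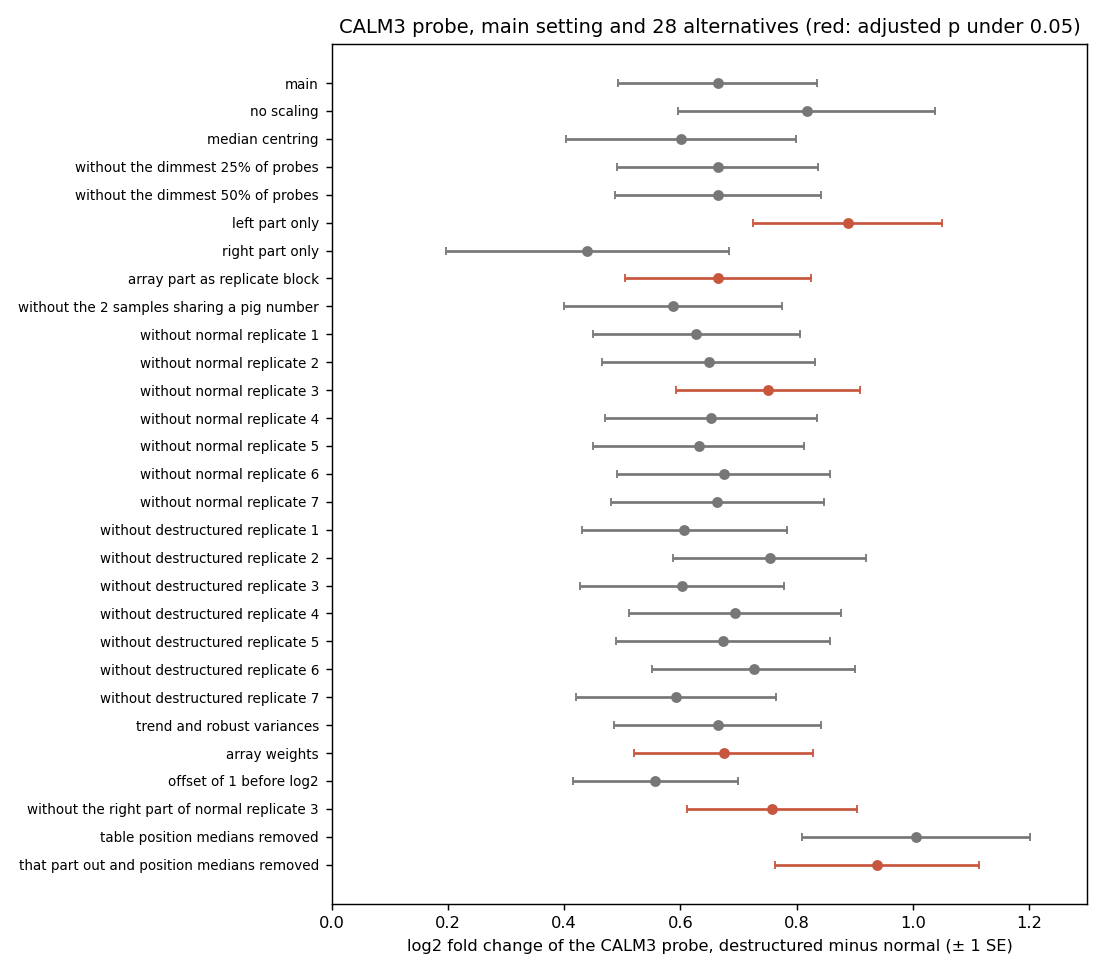
Log2 fold change of the CALM3 probe, destructured minus normal (horizontal axis, ± 1 SE), in the main setting and 28 alternatives (rows); red marks an adjusted p under 0.05. Every value is above 0, from 0.44 with the right part only to 1.00 with table position medians removed, and 6 of the 28 alternatives are red.

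The release channel was represented by 4 probes listed for RYR1, which did not move together. Probe 7101 read from 0.66 to 1.21 in normal pigs, with a median of 0.98, and from 0.77 to 1.99 in destructured pigs, with a median of 1.20. Its groups overlapped, although 3 destructured pigs lay above the highest normal pig, with replicate 1 at 1.99 (log2 fold change 0.28, SE 0.16, adjusted p = 0.481). Without destructured replicate 1 the fold change was 0.15, and without scaling 0.55, and neither passed. Probe 8938 read from -0.65 to 1.02 in normal pigs, with a median of -0.13, and from -0.48 to -0.06 in destructured pigs, with a median of -0.27 (-0.34, SE 0.23, adjusted p = 0.548). The normal spread of that probe came mostly from replicates 1 and 3, at 1.02 and 0.87. In both the right part was high, at 1.91 and 1.86, while the left part read 0.13 and -0.13. The 2 parts of replicate 3 disagree over the whole array. Without its right part that pig stood at -0.11 and the fold change of the probe at -0.20 (SE 0.19, adjusted p = 0.672). Leaving out normal replicate 1 gave -0.18, array weights -0.05 and the right part only -0.53.

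The other probes listed for RYR1 differed less. Probe 8394 read from 0.37 to 0.97 in normal and from 0.27 to 0.68 in destructured pigs, with medians of 0.63 and 0.55 (-0.15, SE 0.12, adjusted p = 0.618). Its highest pig, normal replicate 3 at 0.97, read 0.43 in the left and 1.52 in the right part. Over the 14 pigs its left and right parts correlated at r = -0.152, and at -0.163 without normal replicate 3, so the differences between pigs were not repeated between the parts. Probe 8668 read from 1.04 to 2.01 in normal and from 1.06 to 1.76 in destructured pigs, with medians of 1.38 and 1.36 (-0.0036, SE 0.16, adjusted p = 0.994). Its parts correlated at 0.746 over the 14 pigs, and at 0.776 without normal replicate 3.

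Averaged over its probes, RYR1 stood at 0.76 ± 0.281 in normal and 0.70 ± 0.145 in destructured pigs (SD, n = 7 each), a difference of -0.05 (exact two-sided permutation test, p = 0.668). The sign of this mean was not stable: it was 0.0066 without the right part of normal replicate 3, 0.19 without scaling and 0.14 when the dimmest 25% of probes were left out, which removed 2 of the 4 probes. The 95% intervals of the probes reached from -0.82 (probe 8938) to 0.63 (probe 7101), so changes of up to 1.77-fold lower and 1.54-fold higher lie within them. Over the 14 pigs the 4 probes correlated pairwise at r from -0.23 (7101 and 8938) to 0.59 (8668 and 8938), as a description. The gene names come from an old annotation, and each result here is that of the probe listed for a gene.

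The calcium pump had 1 probe, listed for ATP2A2 (probe 5418). It read from -0.67 to 0.70 in normal pigs, with a median of 0.08, and from -0.38 to 0.52 in destructured pigs, with a median of 0.13. The destructured values lay wholly inside the normal range, whose ends were replicates 4 and 1. The group means were 0.12 ± 0.437 and 0.12 ± 0.346 (SD, n = 7 each), with a log2 fold change of 0.0056 (SE 0.20, adjusted p = 0.994). The 95% interval, from -0.41 to 0.42, holds changes of up to 1.33-fold lower and 1.34-fold higher. Its left and right parts correlated at 0.647 over the 14 pigs, so that much of the spread between pigs appeared in both parts.

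Sarcolipin had 2 probes. Probe 5482 read from -0.14 to 0.36 in normal pigs, with a median of -0.05, and from -0.27 to 0.33 in destructured pigs, with a median of -0.11 (log2 fold change -0.09, SE 0.13, adjusted p = 0.803). The highest pig of each group was the one carrying the shared pig number, normal replicate 2 at 0.36 and destructured replicate 3 at 0.33. Destructured replicate 3 read 0.74 in the left part and -0.08 in the right, where destructured replicate 5 was higher at -0.01. Normal replicate 2 read 0.33 and 0.40, and normal replicate 3 was higher in the right part at 0.54. Over all pigs the left and right parts of this probe correlated at r = 0.095, and at 0.175 without normal replicate 3. Its differences between pigs were thus hardly repeated between the parts. Probe 6079 read from -0.96 to 0.0026 in normal pigs, with a median of -0.81, and from -1.25 to -0.07 in destructured pigs, with a median of -0.83 (-0.12, SE 0.20, adjusted p = 0.847). In that probe the same pig number gave -0.05 in the normal and -1.25 in the destructured group, the second highest normal and the lowest destructured value. The highest normal pig, replicate 3 at 0.0026, read 0.51 in the left and -0.51 in the right part, so here its left part was the high one. Without its right part that pig stood at 0.53 and the fold change of the probe at -0.19 (SE 0.22, adjusted p = 0.734).

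Averaged over both probes, SLN stood at -0.29 ± 0.304 in normal and -0.39 ± 0.135 in destructured pigs (SD, n = 7 each), a difference of -0.11 (exact two-sided permutation test, p = 0.396), and without scaling the sign turned to 0.17. The difference was -0.03 without normal replicate 2 and -0.03 without normal replicate 3. The 2 probes correlated at r = 0.215 over the 14 pigs. Both are dim. Probe 6079 was brighter than only 2.52% of the probes on the array and probe 5482 than 11.8%; ATP2A2 (14.1%), RYR1 probe 8938 (9.48%) and RYR1 probe 8394 (23.4%) lay in the dimmest 25% as well. Background is not given, so how far these 5 probes rise above it was not measured.

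**Figure D4:**
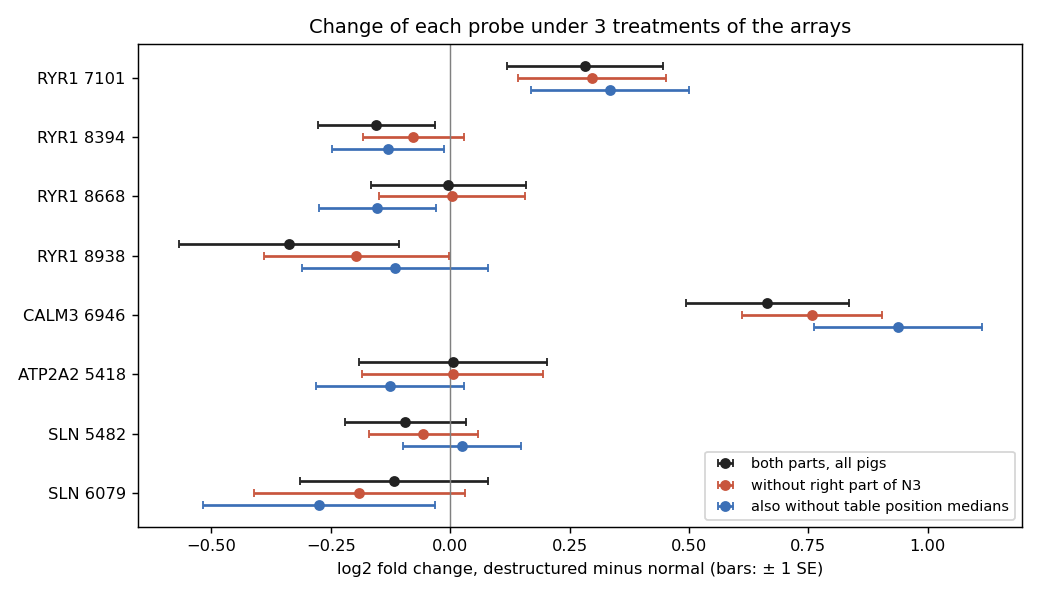
Log2 fold change, destructured minus normal (horizontal axis, ± 1 SE), of the 8 probes with both parts of all arrays (black), without the right part of N3, normal replicate 3 (red), and with table position medians removed as well (blue). CALM3 stands at 0.66, 0.76 and 0.94, and no other probe exceeds 0.34 in either direction in these settings.

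By the size of their correlation over the 14 pigs, a description of values that share array and brightness, the named probes most like the CALM3 probe were those listed for RPS3, a ribosomal protein (probe 7134, r = 0.911), GAPDH (probe 6958, r = 0.789) and FTL, the ferritin light chain (probe 7122, r = 0.713). After subtraction of the group means these were 0.797, 0.545 and 0.251, so the likeness to FTL lay mostly between the groups. The GAPDH probe is the table neighbour named above. With both changes to the arrays, and the group difference left in, the correlations with CALM3 were 0.921 for RPS3, 0.968 for GAPDH and 0.384 for FTL.

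The ATP2A2 probe was most like those listed for DBI, which binds acyl-CoA (r = 0.890), ACADS of fatty acid oxidation (0.852) and the fast myosin light chain MYLPF (0.850). Among the 8 probes its highest correlations were with RYR1 probe 8668 (0.707) and SLN probe 6079 (0.641). Within the groups these were 0.707 and 0.651. For SLN the most alike were PYGM and ENO3, muscle enzymes of glycogen breakdown and glycolysis (0.761 and 0.756), and TPT1 (0.732) for probe 5482, and RACK1 (0.841), PSME1 (0.800) and the fast troponin C gene TNNC2 (0.794) for probe 6079. With both changes to the arrays the SLN correlations were, in the order above, 0.76, 0.74 and 0.49 for probe 5482. For probe 6079 they were 0.81, 0.16 and 0.62.

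The probes listed for RYR1 had different partners. Probe 7101 was most like the fast troponin I gene TNNI2 (0.638), the CALM3 probe (0.572) and the creatine kinase CKM (0.571). Probe 8394 was most like TPT1 (0.840), TNNC2 (0.776) and CAV3, the caveolin of muscle (0.767). Probe 8668 was most like PRL (0.912), MYLPF (0.813) and CKM (0.813), and probe 8938 like MAOB (0.887), XIRP2 (0.866) and the muscle calpain CAPN3 (0.848). No probe was among the first 3 for more than 1 of these 4. With both changes to the arrays the correlations were, in the order above, 0.44, 0.54 and 0.33 for probe 7101 and 0.59, 0.74 and 0.44 for probe 8394. They were 0.88, 0.78 and 0.56 for probe 8668 and 0.80, 0.81 and 0.73 for probe 8938.

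Of a list of 49 genes of calcium handling and calmodulin signalling, the annotation names probes for 4, and these are the 4 genes described. None of its 8 probes passed in either direction. Of the troponin C genes, which bind the released calcium on the thin filament, TNNC2 has 29 probes, 10 with positive and 19 with negative fold changes (median -0.11). None passed, and probe 7511 alone had an unadjusted p under 0.05 (-0.40, SE 0.17, adjusted p = 0.326). That is 3.45% of the TNNC2 probes, against 13.0% of all probes. The calcium-activated proteases were represented by CAPN2, CAPN3 and CAPNS1 with 4 probes, 1 positive and 3 negative (median -0.12), none of which passed. The largest was a probe listed for CAPN3 (probe 8249), at 3.62 ± 0.871 in normal and 3.01 ± 0.275 in destructured pigs (SD, n = 7 each; -0.61, SE 0.30, adjusted p = 0.403).

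The tissue label was set against markers. Of 11 genes of skeletal muscle fibres 7 are named, with 93 probes whose summed intensity spanned 8.66 to 8.86 in normal and 8.80 to 8.88 in destructured pigs on the log2 scale. None of these probes passed, and 41 had positive and 52 negative fold changes. At an unadjusted p under 0.05 stood 17 of them (18.3%, against 13.0% of all probes), 11 positive and 6 negative, with MYH7 probe 5503 at 0.56 and CKM probe 8794 at -0.66 at the ends. In bulk RNA fewer cells of a type and less RNA per cell cannot be told apart. Markers of other cells were few: 2 of 5 adipocyte genes (3.00 to 3.90 in normal, 3.73 to 3.96 in destructured pigs), 1 of 3 endothelial (-0.53 to 0.11 and -0.29 to 0.19), 2 of 4 immune (2.79 to 3.56 and 2.80 to 3.46) and 3 of 6 matrix genes (3.84 to 4.98 and 3.57 to 4.32). None of their probes passed, and no blood or nerve marker is named. The part of other cells in the values of the calcium genes was not tested.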

How the data were processed

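The deposited file holds linear spot intensities for 4608 probes in 28 columns. Per the labels' protocols, an oligonucleotide common to all spots was hybridised first to check the DNA per spot, then cDNA labelled with 33P, and spots were quantified with BZscan. A background subtraction or a division by the first signal by the authors is not stated. Column medians ran from 1.69 to 3.67.

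Log2 intensities were quantile normalized over the 28 columns and averaged over the 2 parts per pig. Each probe of the table was fitted with limma 3.58.1 (R 4.3.3; lmFit, eBayes, group as the only term, no filter), and the fit was tested on simulated data. Gene means were tested by exact permutation. All 8 probes, every probe of the calcium, troponin C and calpain lists with an unadjusted p under 0.05, and for each of the 8 the 3 most correlated probes of other named genes are named; CAPN3 probe 8249 and, among the muscle fibre markers, MYH7 probe 5503 and CKM probe 8794 were singled out after their values were seen. The Entrez identifiers of all 4 genes were found in RefSeq's pig gene table. Members, lists and alternatives were chosen with earlier results of these data known. No probe sequence was used here. Figures used matplotlib 3.10.9 (Python 3.11.15).

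The table repeats its positions in blocks of 72 probes (6 by 12); in 1 alternative the median of each position was subtracted per column. The 28 alternatives covered scaling, dim probes, array parts, the part as a block, single pigs, variances, weights and the offset.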

Additional observations from a re-analysis of the deposited data

Results flagged for a closer look

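In each group of 7 pigs the highest and lowest pig were compared with the nearest other pig. In 2 of the 20 groups looked at, 1 pig stood apart by more than a fixed share of the group's range; chance alone would give this in about 1 in 20. The probe listed for CALM3 in normal replicate 3 was at 2.57, and the nearest normal pig at 2.11. The mean over the probes listed for SLN in destructured replicate 1 was at -0.11, and the nearest destructured pig at -0.36. In that pig the dim probe 6079 was at -0.07, with the next destructured pig at -0.59. Probe 5482 was at -0.16 there, within the range of the other destructured pigs.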

How the results depend on the processing

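The number of the 8 probes called was 0 in the main setting and became 1, the CALM3 probe each time, with the left part only, the array part as a replicate block, array weights, without the right part of normal replicate 3, and without that part with table position medians removed. With single pigs left out in turn it ran from 0 to 1, the latter without normal replicate 3. CALM3 kept its sign in all 28 alternatives, and its exact permutation test was lost with the right part only (0.44, p = 0.105). The replicate block left its fold change at 0.66 and changed no other call. The other 7 probes passed in no alternative that held them, as leaving out dim probes removed each of them at least once. RYR1 probes 7101 and 8938 kept their sign in the 27 and 26 alternatives that held them. Their sizes ran from 0.15 to 0.55 and from -0.53 to -0.05. Signs turned as follows, with causes not tested. Without scaling RYR1 probes 8394 and 8668 were at 0.12 and 0.19, SLN probes 5482 and 6079 at 0.18 and 0.16, and the means of RYR1 and SLN at 0.19 and 0.17, where the array medians differed by 0.19. Without the samples sharing a pig number RYR1 8668 was at 0.052 and SLN 6079 at 0.064. With array weights RYR1 8668 was at 0.11. Without the right part of normal replicate 3 it was at 0.0033, and the RYR1 mean at 0.0066. ATP2A2 was at -0.090 with the right part only, and SLN 6079 at 0.030 with the left part only. With the offset ATP2A2 was at -0.0047. With table position medians removed ATP2A2 was at -0.18 and SLN 5482 at 0.046, and with both changes at -0.13 and 0.025. Without the dimmest 25% of probes the RYR1 mean was at 0.14. With 1 pig left out RYR1 8668 ran from -0.065 to 0.098, the RYR1 mean from -0.10 to 0.016, ATP2A2 from -0.12 to 0.10, the SLN mean from -0.15 to -0.03 and SLN 6079 from -0.23 (without destructured replicate 1) to -0.014 (without normal replicate 3). The number of arrays limits the precision, and signal over background is not given.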
